A study of Mus musculus with 6 samples.

Results

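The genes described are 30 genes of cholesterol synthesis and of its control by SREBP transcription factors, as measured in macrophages grown in culture from mouse marrow precursors (bone marrow-derived macrophages, BMDM). They were chosen by symbol, and all 30 symbols were found among the 55291 genes of the deposited table. Of these, 21 encode enzymes of the pathway and 9 encode its regulators, a sterol carrier and a ubiquitin ligase that removes lipoprotein receptors. Poly(A) RNA was sequenced from 3 libraries of BMDM pretreated with apoptotic cells (AC) and 3 libraries of BMDM without that treatment. All are mouse BMDM, and the labels name no genotype, strain, age or further agent for either group. Where the AC came from, how many were added and for how long is not stated in the labels. Nothing there ties the 3 replicates to different cultures or mice. A p-value below thus speaks of the spread among 6 libraries, and that spread may be technical.

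Cells build cholesterol from acetyl-CoA through mevalonate, prenyl diphosphates, squalene and lanosterol. When sterol in the endoplasmic reticulum is low, the escort protein Scap carries SREBP precursors to the Golgi, where a pair of proteases releases the fragment that enters the nucleus and switches on most genes of the pathway. When sterol is high, Insig proteins hold Scap and its cargo back. Macrophages that digest engulfed cells take in the cholesterol of those cells as well.

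Promoter letters are shown here for 3 members, Hmgcs1 because it held the sterol-element letters that were searched, and Insig1 and Insig2 because their products hold the sterol brake described above. Per GENCODE M21, Hmgcs1 (ENSMUSG00000093930.2) lies at chr13:119690379-119708260, Insig1 (ENSMUSG00000045294.11) at chr5:28071363-28078662 and Insig2 (ENSMUSG00000003721.14) at chr1:121304353-121332589 of mm10. The sequences are those of RefSeq on GRCm38.p6, the sequence of mm10, read 5′ to 3′ on the gene's strand and ending before the annotated gene begins. Capitals mark TCACNCCAC, the core letters of a sterol regulatory element, CCAAT, the box bound by NF-Y, which reads ATTGG on the other strand, and CACGTG, an E-box.
Hmgcs1, chr13:119690101-119690350, plus strand: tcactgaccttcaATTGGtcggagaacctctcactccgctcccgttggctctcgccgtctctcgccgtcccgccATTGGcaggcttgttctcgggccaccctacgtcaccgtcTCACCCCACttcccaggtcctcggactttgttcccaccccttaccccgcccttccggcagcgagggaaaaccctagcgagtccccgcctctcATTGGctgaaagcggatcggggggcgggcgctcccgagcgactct
Insig1, chr5:28071162-28071362, plus strand: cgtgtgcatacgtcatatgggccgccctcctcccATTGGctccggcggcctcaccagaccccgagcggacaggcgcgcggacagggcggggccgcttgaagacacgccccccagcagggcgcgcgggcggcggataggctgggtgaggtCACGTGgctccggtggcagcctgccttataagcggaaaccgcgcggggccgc
Insig2, chr1:121332590-121332839, minus strand: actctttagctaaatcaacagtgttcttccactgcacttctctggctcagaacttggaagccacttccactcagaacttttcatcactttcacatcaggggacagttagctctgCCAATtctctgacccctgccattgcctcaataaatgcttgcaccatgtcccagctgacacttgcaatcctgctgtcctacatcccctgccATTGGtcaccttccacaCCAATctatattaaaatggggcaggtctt
Windows of 250 bases before the start were at hand for 25 of the 30 members. Some genes had more than 1 window (33 windows for the 25 members, 32851 for 27025 genes), and a match in any of them counted. All genes here are the 27025 with a window, whether or not they were among the 12603 tested below. Searched on both strands, TCACNCCAC lay in the window of 1 of those 25 members (4%), which was Hmgcs1, against 1.22% of 27025 genes. CCAAT lay in the windows of 21 of the 25 (84%), against 37.5% of all genes. CACGTG was found for 5 of the 25 (20%), against 6.86% of all genes, and a 10-base form of the sterol element that contains TCACNCCAC for 0 of them, against 0.0814%. A match of letters is not a bound site, and a window without a match says nothing of the factor.

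The libraries gave back 19330345 to 32649082 reads on genes. Levels are given as TPM, the share of transcripts after scaling for gene length, rescaled so that each library sums to 1000000. Macrophage markers were present throughout, with 10 of 10 above 1 TPM and a summed level of 16070, 14914 and 14073 TPM in AC replicates 1, 2 and 3 and 17346, 16309 and 14677 TPM in untreated replicates 1, 2 and 3. Of 12 T cell and thymocyte markers, 11 were under 1 TPM in every library, and 6 of 6 fibroblast markers were too. The T cell and thymocyte markers still summed to 9.87 to 17.3 TPM. Under 1 TPM in every library were also 4 of 5 B cell and 3 of 5 epithelial markers. Only 1 of 8 neutrophil markers was, and that list summed to 23.7 to 54.9 TPM. For erythroid markers it was 2 of 6, with sums of 0.0652 to 17.5 TPM, the highest in AC replicate 2. Several libraries stood apart. Placental transcripts summed to 32.2 and 151 TPM in AC replicates 1 and 2 and 16.3 and 35.0 TPM in untreated replicates 1 and 2, and were listed at 0 in replicate 3 of both groups. The macrophage lysozyme gene Lyz2 was at 83.7 TPM in untreated replicate 1, against 9270 TPM or more in each of the other libraries. The small RNA gene Gm23935 took 73936 TPM in AC replicate 3, against 13452 TPM or less elsewhere. AC replicate 1 was the lowest of the 6 libraries for 47.5% of the 12603 genes tested. The part of these library features in the results below was not tested.

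The comparison of AC pretreated with untreated BMDM asks whether the macrophages' transcripts change after contact with dying cells. No gene of the pathway passed the test: of the 29 members tested, 0 had an adjusted p under 0.05 (limma-trend on log2(TPM + 1), Benjamini-Hochberg over 12603 genes), where 0% of all genes did. At an unadjusted p under 0.05 there were 0 members, against 1.3% of all genes, and voom on recovered reads likewise called 0 members, with 0 at an unadjusted p under 0.05. The adjusted p of every tested member was 1.0. In bulk RNA, fewer cells of a type and less RNA per cell cannot be told apart. Lower means of log2(TPM + 1) after AC pretreatment were common, in 26 of the 29 tested members, against 70.6% of all genes. That count was 19 with median-of-ratios scaling, where 52.55% of all genes were lower, 18 with upper-quartile scaling, where 49.8% were, and 17 without AC replicate 1, where 48.35% were. The median log2 difference of the members, AC pretreated minus untreated, was -0.10, beside -0.07 for all genes tested. Set against that median of all genes, 18 of the 29 members lay below it.

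**Figure D1:**
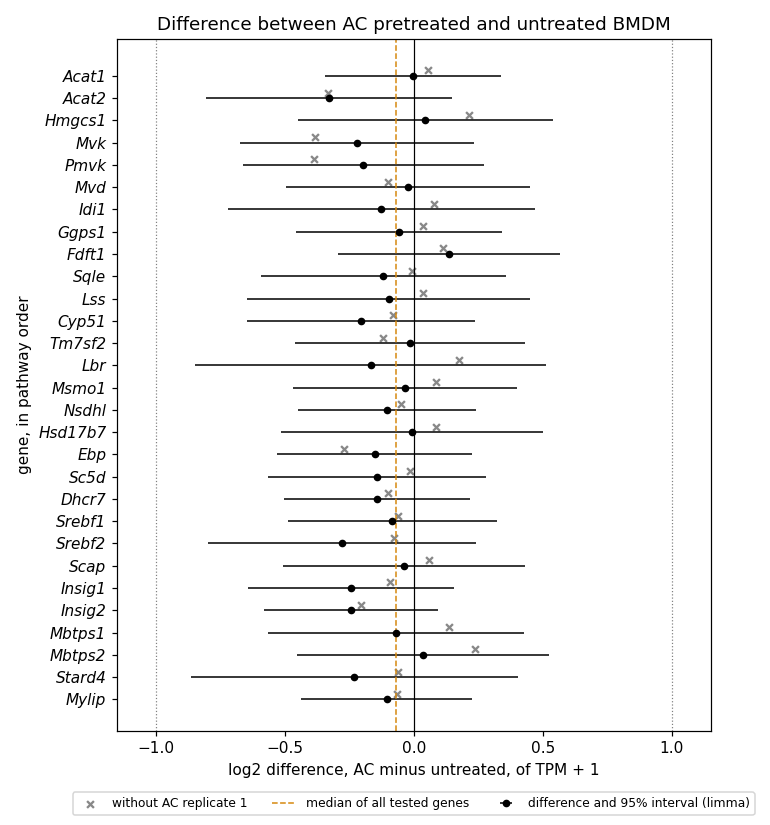
Log2 difference between AC pretreated and untreated BMDM for the 29 tested genes in pathway order, with the 95% interval of limma as bars, the value without AC replicate 1 as a cross, the median of all tested genes as a dashed line and 2-fold limits as dotted lines. Each interval crosses 0 and stays inside the 2-fold limits. The cross lies to the right of the full value for most genes, and to the left for Acat2, Mvk, Pmvk, Mvd, Fdft1, Tm7sf2 and Ebp.

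The size of difference that these libraries leave room for can be read from the intervals. For all 29 tested members the 95% interval of the log2 difference stayed inside 2-fold in either direction, against 87.4% of all genes, and for 18 members inside 1.5-fold, against 46.1%. The scale of log2(TPM + 1) narrows the differences of low genes, and with a pseudocount of 0.1 the intervals of 27 members stayed inside 2-fold, the exceptions being Idi1 and Stard4, both under 5 TPM on average. With fewer libraries the count was 27 without AC replicate 3, 26 without untreated replicate 2 and 24 between the 4 libraries with placental transcripts. The lowest bound, -0.86, belonged to Stard4, and the highest, 0.57, to Fdft1.

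**Figure D2:**
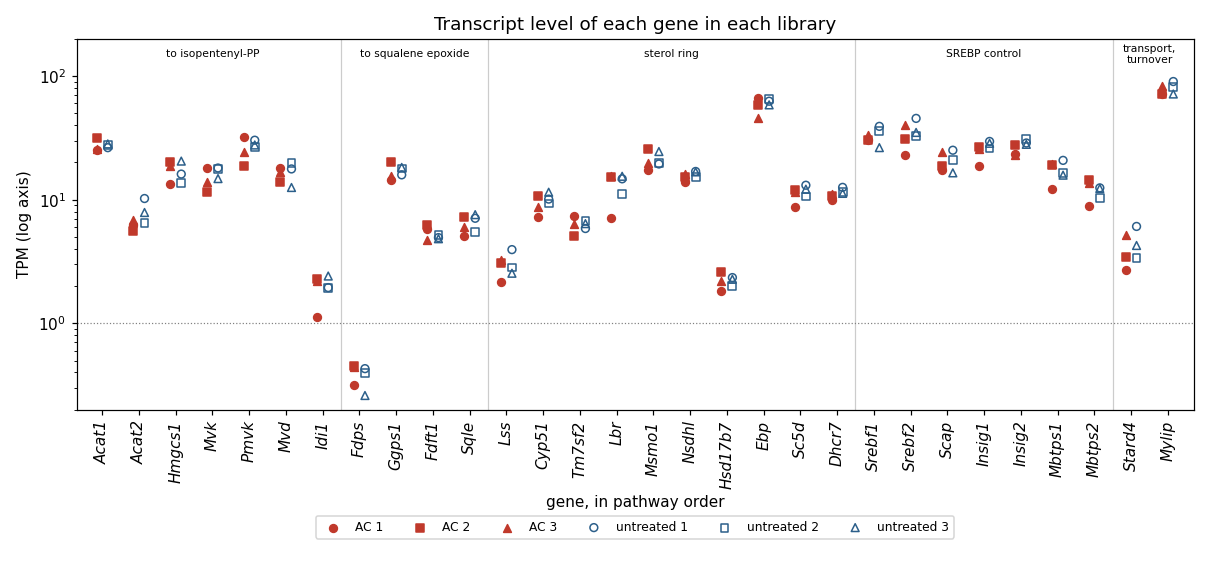
TPM of the 30 genes in each library on a log axis, in pathway order, with AC pretreated libraries as filled and untreated libraries as open symbols and a dotted line at 1 TPM. Ebp and Mylip are the highest, Fdps is the 1 gene below the line in every library, and AC replicate 1 (filled circles) is the lowest point of many genes.

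The early enzymes, which turn acetyl-CoA into isopentenyl diphosphate, had levels that differed more between genes than between groups. The thiolase gene Acat1, whose product works mainly in mitochondria, averaged 27.5 ± 3.40 TPM in AC pretreated and 27.4 ± 0.975 TPM in untreated libraries (SD, n = 3 each, here and for all means below). Acat2 encodes the cytosolic thiolase that opens the pathway. Its levels were 6.24, 5.59 and 6.90 TPM in AC replicates 1, 2 and 3, against 10.2, 6.50 and 7.88 TPM in untreated replicates 1, 2 and 3. The groups overlapped only through untreated replicate 2, and untreated replicate 1 stood highest. The log2 difference of -0.33 ± 0.21 (SE; 95% interval -0.81 to 0.15) was the lowest among the members and was -0.18 without untreated replicate 1. Of the 100-base stretches of Acat2 transcripts, 30.6% also occur in Acat3 or, on the other strand, in Tcp1. Its level is therefore uncertain, since no label states the strand setting or the treatment of shared reads.

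Hmgcs1 encodes the cytosolic synthase that condenses acetyl-CoA and acetoacetyl-CoA, and is the member with the sterol-element letters shown above. It stood at 13.3, 20.1 and 18.6 TPM in AC replicates 1, 2 and 3, against 16.1, 13.6 and 20.5 TPM in untreated replicates 1, 2 and 3. Each group spanned nearly the same range, with a low library in both. The log2 difference was 0.04 ± 0.22 (95% interval -0.45 to 0.54), 0.21 without AC replicate 1 and -0.09 without untreated replicate 2. Of the 100-base stretches of Hmgcs1 transcripts, 9.93% also occur on the other strand in Gm48342, so its level is uncertain to that extent.

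Mvk, the mevalonate kinase gene, had 18.1, 11.4 and 13.9 TPM in AC libraries, against 18.0, 17.6 and 14.8 TPM in untreated ones. AC replicate 1 was here the highest of all libraries, and the log2 difference of -0.22 ± 0.20 (95% interval -0.68 to 0.23) ran from -0.38 without AC replicate 1 to -0.07 without AC replicate 2. Pmvk, which encodes the next kinase, followed the same order within the AC group, with 32.2 TPM in replicate 1, 18.8 TPM in replicate 2 and 24.1 TPM in replicate 3, and averaged 25.0 ± 6.74 TPM, against 28.2 ± 1.91 TPM in untreated libraries. Its log2 difference of -0.20 ± 0.20 was -0.01 without AC replicate 2 and -0.39 without AC replicate 1. Without AC replicate 1, Mvk and Pmvk were the 2 members with an unadjusted p under 0.05 by limma, where 797 of 12603 genes had one, and neither passed after adjustment. Mvd, the decarboxylase gene that follows, averaged 16.2 ± 2.21 and 16.7 ± 3.72 TPM in AC pretreated and untreated libraries.

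Idi1, the isomerase gene that yields the starter unit of prenyl chains, was lower than the other early enzymes, which averaged 6.24 TPM or more in AC pretreated and 8.20 TPM or more in untreated libraries. It had 1.13, 2.30 and 2.22 TPM in AC replicates 1, 2 and 3, against 1.94, 1.92 and 2.41 TPM in untreated replicates 1, 2 and 3, from 36 to 73 reads per library. AC replicate 1 was the low one, and the log2 difference of -0.13 ± 0.26 (95% interval -0.72 to 0.47) was 0.08 without it. Idi1 shares 24.7% of its 100-base stretches with other annotated genes, processed pseudogenes Gm13502 and Gm35570 among them. Its level is therefore uncertain too.

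In the segment from prenyl diphosphates to squalene epoxide, Fdps and Fdft1 share sequence with other genes, as Ggps1 does for 4.15% of its 100-base stretches. Fdps, the farnesyl diphosphate synthase gene, stood at 0.314, 0.453 and 0.444 TPM in AC libraries, against 0.430, 0.395 and 0.261 TPM in untreated ones, on 7 to 18 reads, and was the 1 member below the filter of 1 TPM in 3 libraries. Of its 100-base stretches, 54.1% also occur in Gm43738, Gm3571 or Gm5873, and those genes were at 0.624 TPM or less in every library. Fdft1, which encodes squalene synthase and so commits the pathway to sterols, averaged 5.60 ± 0.773 TPM in AC pretreated and 4.98 ± 0.180 TPM in untreated libraries. It shares 21.5% of its stretches, mostly on the other strand with the cathepsin gene Ctsb, which averaged 12056 TPM in AC pretreated and 11742 TPM in untreated libraries. The levels of both Fdps and Fdft1 are uncertain for that reason. Ggps1, which makes the geranylgeranyl diphosphate used to anchor small GTPases in membranes, averaged 16.7 ± 2.98 and 17.3 ± 1.27 TPM in AC pretreated and untreated libraries.

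Sqle encodes squalene epoxidase, which makes the first oxygenated intermediate and is a point of control. Its levels were 5.05, 7.21 and 6.04 TPM in AC replicates 1, 2 and 3, against 7.07, 5.46 and 7.57 TPM in untreated replicates 1, 2 and 3. The groups overlapped, and AC replicate 1 and untreated replicate 2 were the low ones, as they were for Hmgcs1. The log2 difference of -0.12 ± 0.21 (95% interval -0.59 to 0.36) was -0.01 without AC replicate 1.

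All 10 genes that close and trim the sterol ring had a lower mean log2(TPM + 1) in AC pretreated libraries, against 70.6% of all genes. Their log2 differences ran from -0.20 (Cyp51) to -0.01 (Hsd17b7), with 0 called. With median-of-ratios scaling 7 of the 10 were lower, where 52.55% of all genes were. Without AC replicate 1 the count was 6, where 48.35% of all genes were lower. Cyp51, which encodes lanosterol demethylase, stood at 7.24, 10.7 and 8.73 TPM in AC replicates 1, 2 and 3, against 10.1, 9.31 and 11.5 TPM in untreated replicates 1, 2 and 3. AC replicate 2 lay above 2 untreated libraries, and the log2 difference was -0.20 ± 0.19 (95% interval -0.65 to 0.24), or -0.08 without AC replicate 1. Dhcr7, the 7-dehydrocholesterol reductase gene of a last step, differed little between libraries. It had 9.86, 10.7 and 11.2 TPM in AC libraries, against 12.6, 11.5 and 11.3 TPM in untreated ones. The groups did not overlap, although AC replicate 3 and untreated replicate 3 nearly met, and the log2 difference was -0.14 ± 0.16 (95% interval -0.50 to 0.22). It was -0.08 with median-of-ratios scaling, -0.21 where placental transcripts were found and -0.01 between the 2 libraries at 0.

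Among the other ring enzymes, Ebp, the sterol isomerase gene, was the most abundant enzyme transcript at 56.4 ± 10.3 TPM in AC pretreated and 62.1 ± 3.41 TPM in untreated libraries. Its log2 difference of -0.15 ± 0.17 was -0.007 without AC replicate 3 and -0.27 without AC replicate 1. Msmo1, which encodes the methyl sterol oxidase, followed at 20.9 ± 4.30 and 21.3 ± 2.81 TPM. Its partner genes in removing methyl groups, Nsdhl and Hsd17b7, averaged 15.1 ± 1.10 and 2.21 ± 0.399 TPM in AC pretreated and 16.3 ± 0.971 and 2.21 ± 0.177 TPM in untreated libraries. Lss, the lanosterol synthase gene, averaged 2.83 ± 0.600 and 3.10 ± 0.743 TPM, and Sc5d, a desaturase gene, 10.8 ± 1.76 and 12.0 ± 1.26 TPM, a log2 difference of -0.14 ± 0.18 that was -0.01 without AC replicate 1. The low TPM of Lss is per base of a merged exon length of 10787 bases, which counts every annotated exon, so its rank among the enzymes depends on that length.

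Lbr and Tm7sf2 encode enzymes for the same reduction, and Lbr also anchors chromatin at the nuclear envelope. Lbr stood at 7.09, 15.4 and 15.7 TPM in AC replicates 1, 2 and 3, against 14.8, 11.1 and 15.5 TPM in untreated replicates 1, 2 and 3, so that 1 AC library stood far below the rest. Its SD on the log2 scale was 0.59 in AC libraries, the widest of the members, and its log2 difference of -0.17 ± 0.30 was 0.18 without AC replicate 1. Tm7sf2 was instead highest in that library, with 7.39, 5.12 and 6.40 TPM in AC libraries, against 5.84, 6.75 and 6.40 TPM in untreated ones. The ratio of Lbr to Tm7sf2 TPM was therefore 0.959 in AC replicate 1, 3.00 in AC replicate 2 and 2.45 in AC replicate 3, beside 2.52, 1.64 and 2.42 in untreated replicates 1, 2 and 3. Tm7sf2 shares 15.7% of its 100-base stretches with Vps51, and Lbr shares 8.28% with Dnah14 on the other strand. Both levels and that ratio are therefore uncertain.

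Summed over the 21 enzymes, the pathway took 281, 296 and 275.5 TPM in AC replicates 1, 2 and 3, against 311, 297 and 306 TPM in untreated replicates 1, 2 and 3. The sums did not overlap, by a margin of about 1 TPM between AC replicate 2 and untreated replicate 2, and averaged 284 ± 10.4 TPM in AC pretreated and 305 ± 7.01 TPM in untreated libraries. Of all single genes tested, 70.6% had lower means in AC pretreated libraries and 3.48% were lower without overlap, with a median log2 difference of -0.07. The lowest sum was that of AC replicate 3, where Gm23935 took 73936 TPM, and the part of that gene in the sum was not tested. The difference of the mean sums, -20.4 TPM, was -5.33 TPM with median-of-ratios scaling. The most abundant genes, Ebp, Acat1, Pmvk and Msmo1, carry most weight in such a sum. No test is given for it, since the members were chosen with earlier results known.

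The SREBP genes themselves were among the more abundant regulators. Srebf1, whose product favours fatty acid genes, had 30.5, 30.3 and 33.5 TPM in AC replicates 1, 2 and 3, against 39.2, 35.8 and 26.4 TPM in untreated replicates 1, 2 and 3. The AC libraries lay close together within the wider untreated range, and the log2 difference was -0.08 ± 0.18 (95% interval -0.49 to 0.32). Values per gene do not separate its isoforms. Srebf2, whose product favours the cholesterol pathway, stood at 22.9, 31.1 and 40.3 TPM in AC libraries, against 45.5, 32.8 and 35.0 TPM in untreated ones. AC replicate 1 was the lowest and untreated replicate 1 the highest, while AC replicate 3 lay above 2 untreated libraries. Its log2 difference of -0.28 ± 0.23 (95% interval -0.80 to 0.24) was -0.08 without AC replicate 1. Between the libraries with placental transcripts it was -0.52, and between the 2 others 0.20.

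Scap, which escorts SREBP out of the endoplasmic reticulum, had 17.4, 18.8 and 24.5 TPM in AC replicates 1, 2 and 3, against 25.1, 20.96 and 16.5 TPM in untreated replicates 1, 2 and 3. High and low libraries occurred in both groups, and the log2 difference of -0.04 ± 0.21 (95% interval -0.51 to 0.43) was -0.33 where placental transcripts were found and 0.54 between the 2 libraries at 0. Scap shares 6.38% of its 100-base stretches with 5830462I19Rik on the other strand, so its level is uncertain to that extent. The protease genes that cut SREBP in the Golgi, Mbtps1 and Mbtps2, averaged 17.0 ± 4.10 and 12.3 ± 3.00 TPM in AC pretreated and 17.7 ± 2.74 and 11.7 ± 1.17 TPM in untreated libraries. Both were lowest in AC replicate 1, at 12.3 and 8.82 TPM. Mbtps2 shares 34.8% of its 100-base stretches with Yy2, a gene within it that was listed at 0 in every library. The level of Mbtps2 is uncertain for that reason.

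Insig1 and Insig2 encode the proteins that retain Scap, and Insig1 is itself a classic SREBP target. Insig1 stood at 18.8, 26.8 and 25.7 TPM in AC replicates 1, 2 and 3, against 29.6, 25.9 and 28.6 TPM in untreated replicates 1, 2 and 3. AC replicate 2 overlapped untreated replicate 2, and AC replicate 1 was the low library. The log2 difference of -0.24 ± 0.17 (95% interval -0.64 to 0.16) was -0.09 without it. Insig2 had 23.2, 27.8 and 22.9 TPM in AC libraries, against 28.8, 30.9 and 28.0 TPM in untreated ones. Here every AC library lay below every untreated one, although AC replicate 2 and untreated replicate 3 nearly met, and the log2 difference was -0.24 ± 0.15 (95% interval -0.58 to 0.09). It stayed between -0.33 and -0.19 on leaving out each library, was -0.22 where placental transcripts were found and -0.28 between the 2 libraries at 0, and had the smallest unadjusted p of the members, 0.136 by limma. Insig2 and Dhcr7 were the 2 of 29 members whose groups did not overlap, both lower in AC pretreated libraries. Of all genes, 3.48% were lower without overlap, 0.936% were higher without overlap and 4.42% were either. The ratio of Insig1 to Insig2 TPM was 0.810, 0.964 and 1.12 in AC replicates 1, 2 and 3, beside 1.03, 0.840 and 1.02 in untreated replicates 1, 2 and 3, so that neither gene led in a whole group.

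Stard4 and Mylip act outside synthesis, on sterol transport and on the removal of lipoprotein receptors. Stard4, a carrier that moves sterol between membranes and is switched on by SREBP, had 2.68, 3.44 and 5.15 TPM in AC replicates 1, 2 and 3, against 6.08, 3.36 and 4.26 TPM in untreated replicates 1, 2 and 3. Untreated replicate 1 was the highest, and the log2 difference of -0.23 ± 0.28 (95% interval -0.86 to 0.40) was -0.04 without it. Mylip, the ligase gene that is switched on by sterol-sensing LXR receptors, stood at 71.2, 71.7 and 82.6 TPM in AC libraries, against 90.3, 81.2 and 71.6 TPM in untreated ones. It was the most abundant of the 30 genes, at percentile 84.9 of the level of all tested genes, with a log2 difference of -0.10 ± 0.14 (95% interval -0.44 to 0.23).

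**Figure D3:**
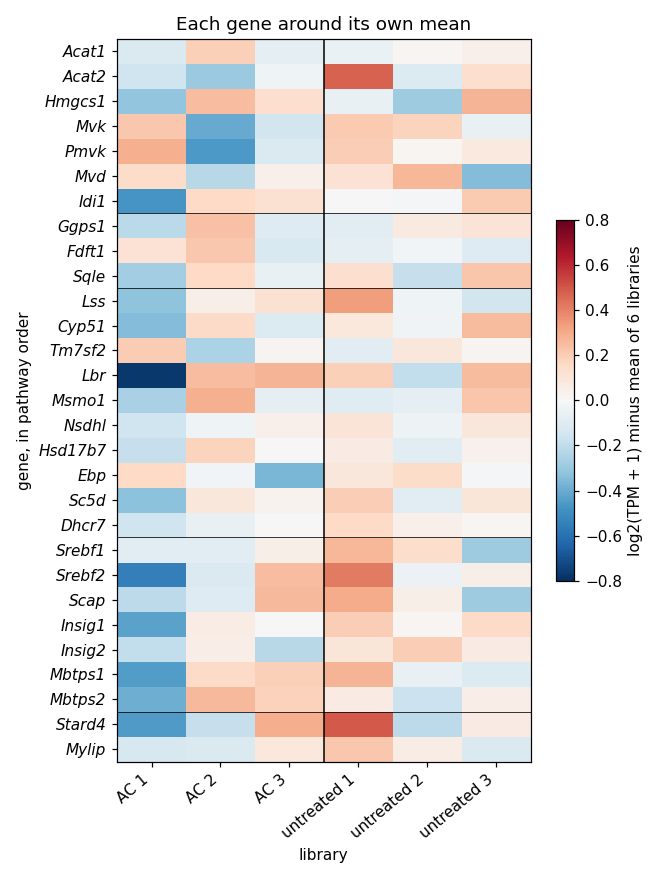
Log2(TPM + 1) of the 29 tested genes minus each gene's mean over the 6 libraries, with genes in pathway order and AC pretreated libraries left of untreated ones. AC replicate 1 is low for most genes but high for Mvk, Pmvk, Tm7sf2 and Ebp, and untreated replicate 1 is high for many.

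Many members shared the same low and high libraries. AC replicate 1 was the lowest of the 6 for 19 of the 29 tested members, where it was for 47.5% of all genes, and untreated replicate 1 was the highest for 12 of them, where it was for 23.6%. Of the remaining members, 4 were highest in AC replicate 1, namely Mvk, Pmvk, Tm7sf2 and Ebp. The median SD on the log2 scale was 0.24 in AC pretreated and 0.14 in untreated libraries over the members, beside 0.29 and 0.16 over all tested genes. Without AC replicate 1 the members' median difference was -0.05, beside 0.01 for all genes.

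**Figure D4:**
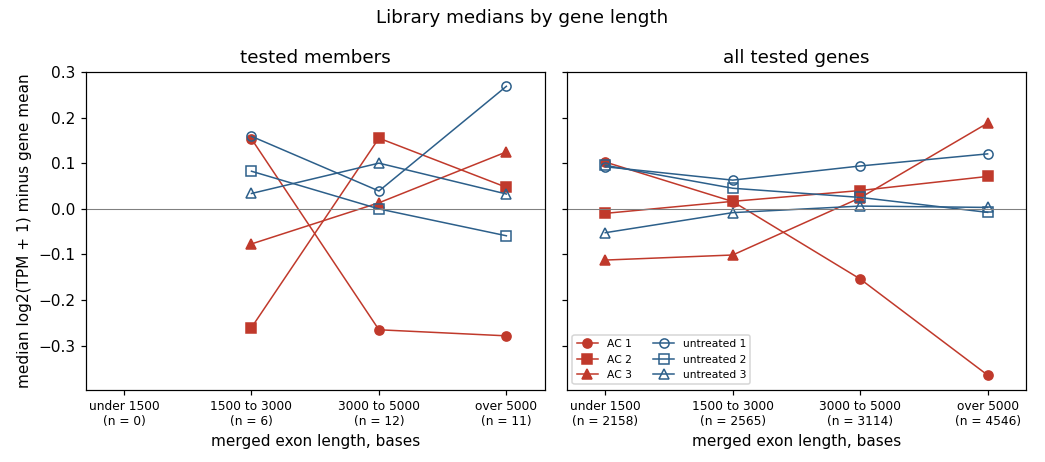
Median over genes of log2(TPM + 1) minus the gene's own mean, by merged exon length, for the tested members (left) and all tested genes (right), 1 line per library. In AC replicate 1 the median of all genes is 0.10 under 1500 bases and -0.36 over 5000 bases, while in AC replicate 3 it is -0.11 and 0.19.

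The libraries also differed by gene length, which moved with these values. In AC replicate 1 the median of all genes around their own means was 0.10 for merged exon lengths under 1500 bases and -0.36 for lengths over 5000 bases, and in AC replicate 3 it was -0.11 and 0.19. The 11 members over 5000 bases, which include Srebf2, Scap, Mbtps1 and Lss, stood at a median of -0.28 in AC replicate 1 and 0.12 in AC replicate 3. The 6 members of 1500 to 3000 bases, which include Mvk, Pmvk and Ebp, stood at 0.15 and -0.08. After removal of each library's trend over length, chosen after seeing the data, 0 members passed, 19 of 29 had lower means and their median difference was -0.04. Of all 12383 genes in that fit, 0 passed and 51.51% had lower means, with a median difference of -0.005.

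In other gene lists around the pathway 0 members passed in either direction, where 0% of all genes did. Of all genes tested, 70.6% had lower means, and 48.35% did without AC replicate 1. Among fatty acid genes that SREBP switches on, 10 of 16 were tested, 5 with higher and 5 with lower means and a median difference of -0.04, which was 0.06 without AC replicate 1. Elovl5, an elongase gene, averaged 40.4 ± 5.92 TPM in AC pretreated and 47.0 ± 4.57 TPM in untreated libraries, a log2 difference of -0.22 ± 0.16 that was -0.10 without AC replicate 1. The desaturase gene Fads1 differed by -0.19 ± 0.16, and by -0.14 without that library. For SREBP transport and sterol-regulated degradation, 2 of 18 tested genes had higher and 16 lower means, with a median of -0.09, while 7 of the 18 were lower without AC replicate 1 and the median was 0.05. Within it Erlin1, which encodes an endoplasmic reticulum scaffold, and the COPII coat gene Sec24c differed by -0.17 ± 0.16 and -0.16 ± 0.15, and by -0.05 and -0.04 without AC replicate 1. Of 13 genes of the isoprenoid branches, which use prenyl diphosphates for dolichol, ubiquinone and protein prenylation, 5 had higher and 8 lower means, with a median of -0.06 that was -0.03 without AC replicate 1. Dhdds, a dolichol synthesis gene, averaged 36.0 ± 2.91 TPM in AC pretreated and 41.6 ± 2.20 TPM in untreated libraries, a difference of -0.21 ± 0.14 that was -0.27 without AC replicate 1. Genes for sterol handling in lysosomes and the endoplasmic reticulum had 5 higher and 5 lower means among 10 tested, with a median of -0.01. Without AC replicate 1, 3 of the 10 were lower and the median was 0.15, beside 0.01 for all genes. Lipa, the lysosomal acid lipase gene, stood at 559, 964 and 783 TPM in AC replicates 1, 2 and 3, against 642, 615 and 809 TPM in untreated replicates 1, 2 and 3, and its difference of 0.13 ± 0.22 was 0.35 without AC replicate 1. Stard3 and Osbpl9 of the same list had lower means, with differences of -0.09 ± 0.14 and -0.08 ± 0.14. Without AC replicate 1 these were -0.17 and 0.006.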

How the data were processed

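STAR 2.7.10a, Subread, featureCounts 2.0.3 and mm10 are named, with no role or order, per the submitters' processing notes. The authors deposited a signal per gene and library, named TPM, whose columns sum to 54732 to 92831. Multiplied by GENCODE M21 merged exon length and divided by 8.57, it gave whole reads in every library for 23473 of 23829 genes (98.5%, tolerance 0.02 reads), so it was not scaled for depth. Each column was rescaled to sum to 1000000. Every column of values was used. A filter of 1 TPM in 3 libraries preceded limma 3.58.1 (R 4.3.3, eBayes with trend) on log2(TPM + 1), 2-sided. The design had been written for TPM. The test was tried on simulated counts with the same dispersion for every gene and library. These held no length trend and no library that stood apart, so the trial does not speak to those features. Replicate pairs differed beyond sampling noise by chi-square. Fully described are a fixed set of members and the 6 with the smallest unadjusted p, and from other lists at most 3 genes each. The members, lists and tests were chosen with earlier results of these data known. Ratios of members, the genes that share sequence, Lyz2 and Gm23935 were chosen after values were seen. Python 3.11.15, pandas 2.3.3, numpy 2.4.6 and matplotlib 3.10.9 did the rest.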

Additional observations from a re-analysis of the deposited data

How the results depend on the processing

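Under each alternative that allows a test, 0 members were called by limma or voom. Values of Fdps rest on 7 to 18 reads in a library and those of Idi1 on 36 to 73, and the cause of these low counts was not tested. Over all genes 0 were called by limma or voom (164 and 97 at an unadjusted p under 0.05), except 16 with the values as deposited, which are not scaled for depth, and 1 without the variance trend. With the replicate number as a block 0 genes were called, and deviations of same-numbered libraries correlated at -0.06, 0.01 and 0.17, so the numbers were not taken as pairs. AC replicate 1 correlated best with untreated replicate 2.

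Leaving out each library, the number of members with lower means ran from 17 to 27 of 29, the lowest without AC replicate 1. The difference in summed enzyme TPM was -5.33 with median-of-ratios scaling, -4.22 with upper-quartile scaling, -38.9 with deposited values and -30.9 between the libraries without placental transcripts. Log2 differences of 11 members kept their sign, which was negative, under each setting run (Acat2, Mvk, Pmvk, Sqle, Cyp51, Nsdhl, Ebp, Sc5d, Dhcr7, Insig1 and Insig2). The share of all genes that kept their sign was not counted, and 70.6% of all genes had lower means in the main fit. Some kept signs rest on values near 0. Ebp was at -0.007 without AC replicate 3, and Sqle and Sc5d were at -0.008 and -0.013 without AC replicate 1. Dhcr7 was at -0.009 between the libraries without placental transcripts. For the other members, the cause of a change of sign was not tested.

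Leaving out each library, the log2 difference ran for Acat1 from -0.098 to 0.054, Hmgcs1 from -0.086 to 0.21, Mvd from -0.20 to 0.10, Idi1 from -0.24 to 0.078, Ggps1 from -0.19 to 0.037, Lss from -0.20 to 0.044, Tm7sf2 from -0.12 to 0.11, Lbr from -0.35 to 0.18, Msmo1 from -0.18 to 0.086, Hsd17b7 from -0.095 to 0.085, Srebf1 from -0.25 to 0.030, Scap from -0.19 to 0.10, Mbtps1 from -0.18 to 0.14 and Mbtps2 from -0.084 to 0.24. With median-of-ratios scaling, the log2 difference stood for Acat1 at 0.064, Mvd at 0.043, Ggps1 at 0.0074, Tm7sf2 at 0.046, Msmo1 at 0.031, Hsd17b7 at 0.040 and Scap at 0.027. With upper-quartile scaling, it stood for Acat1 at 0.073, Mvd at 0.051, Ggps1 at 0.016, Tm7sf2 at 0.053, Msmo1 at 0.040, Hsd17b7 at 0.047, Scap at 0.036 and Mbtps1 at 0.0051. With the length trend removed, it stood for Acat1 at 0.068, Mvd at 0.035, Ggps1 at 0.015, Tm7sf2 at 0.057, Msmo1 at 0.038, Hsd17b7 at 0.067 and Scap at 0.032. By voom, it stood for Acat1 at 0.039, Mvd at 0.0019, Tm7sf2 at 0.027, Msmo1 at 0.0074 and Hsd17b7 at 0.035. With deposited values, it stood for Hmgcs1 at -0.022 and Mbtps2 at -0.031.

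Between libraries with placental transcripts, it stood for Acat1 at 0.058, Ggps1 at 0.017, Msmo1 at 0.097, Hsd17b7 at 0.0077 and Mbtps2 at -0.012. Between the 2 others, it stood for Hmgcs1 at -0.14, Mvd at 0.39, Fdft1 at -0.020, Lss at 0.27, Lbr at 0.019, Srebf1 at 0.34, Srebf2 at 0.20, Scap at 0.54, Mbtps1 at 0.30, Stard4 at 0.22 and Mylip at 0.20. Fdft1 had no voom value, since its reads did not come out whole. Pseudocounts, filters, variance models and the block changed no sign.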
